A study of Mus musculus with 9 samples.

Results

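MHC class II molecules present peptides on antigen-presenting cells, and 6 genes of their pathway were followed through postnatal growth of the mouse heart: H2-Aa, H2-Ab1, H2-Eb1, H2-DMa, Cd74 and Ciita. They were chosen by function and by their log2 signals over age on these same arrays, out of 19938 genes with a probe set of a single symbol. The probe set with the highest mean would have stood for a gene with several, but each of the 6 has 1. Because their signals were known when they were chosen, their levels and differences are given as a description, with no test.

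Hearts of C57BL/6 mice, an inbred strain of the H2-b haplotype, of 3 ages (24 hours, 7 days and 10 weeks) gave total RNA of cardiac muscle, which was hybridised to Affymetrix Mouse Gene 1.0 ST arrays, 3 per age and 9 in all. The design asks how transcript levels differ between these ages. All samples are of 1 strain and tissue, no treatment is given, and sex, animals per array and pooling are not stated in the labels. P-values therefore measure the spread between arrays, which may be technical.

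Every value is a log2 signal, so a difference of 1 is a 2-fold difference. The table has no detection flags, and the median gene averaged 5.57. H2-DMa and Ciita lay below that on every array. H2-Aa, H2-Ab1, H2-Eb1 and Cd74 did so on every 24-hour array, and H2-Ab1 and H2-Eb1 also on every 7-day array. A difference near the dim end of an array can come out too small. That limit covers the folds and first-week shares that start from these levels.

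A class II molecule is a pair of an alpha and a beta chain. The chains assemble in the endoplasmic reticulum with the invariant chain, which fills the groove and guides them to endosomes, where proteases cut it down and a DM molecule exchanges the remaining fragment for a peptide. CIITA, the class II transactivator, does not bind DNA itself but docks on RFX, CREB and NF-Y at the X and Y boxes of class II promoters. Dendritic cells, B cells and macrophages carry class II molecules constitutively, and interferon gamma induces them in many other cells through CIITA.

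A fixed string of letters for each of the X and Y boxes was searched for in promoters of H2 genes, and not all of these promoters hold both strings. RefSeq promoters (GRCm38.p6, 250 bases before to 50 after the start) matched 3 of the 6 genes, H2-Aa, H2-Eb1 and H2-DMa, and those of 3 other class II genes are set beside them. Each stretch below has 84 bases, lies upstream of the start and is lined up on ATTGG, the reverse of CCAAT. Capitals mark the Y box CTGATTGG and the X1 box core AACNGATG, or ATTGG alone in H2-Ob.
H2-Aa, chr17:34287848-34287931, minus strand: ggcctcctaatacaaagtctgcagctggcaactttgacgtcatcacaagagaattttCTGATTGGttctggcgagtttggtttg
H2-Eb1, chr17:34305748-34305831, plus strand: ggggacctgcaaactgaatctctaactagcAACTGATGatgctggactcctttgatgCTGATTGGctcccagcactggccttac
H2-Eb2, chr17:34325515-34325598, plus strand: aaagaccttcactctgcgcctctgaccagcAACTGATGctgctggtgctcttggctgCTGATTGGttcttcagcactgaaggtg
H2-Oa, chr17:34092276-34092359, plus strand: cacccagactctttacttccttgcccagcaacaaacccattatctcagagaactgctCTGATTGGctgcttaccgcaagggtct
H2-Ob, chr17:34238788-34238871, plus strand: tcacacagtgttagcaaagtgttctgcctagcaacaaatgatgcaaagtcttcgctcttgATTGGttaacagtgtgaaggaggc

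On both strands, CTGATTGG was found in 4.1% of the 32851 promoters of this length, AACNGATG in 2.32%, and CCAAT, which the Y box contains in reverse, in 37.4%. Both boxes together were in 31 promoters, 0.0944% of all. In H2-Eb1 and H2-Eb2 the X1 core begins 27 bases before the Y box, a spacing looked up after these sequences were seen, and 2 of all promoters hold it. Neither H2-DMa window, for 2 annotated starts, holds the Y box or the X1 core. The interferon-responsive GAS motif TTCNNNGAA, in 8.3% of all promoters, was in none of the windows of the 3 genes. A match describes the letters only, and a box spelled otherwise would not be found by this search.

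The arrays are those of heart muscle. The sarcomere genes Myh6, Tnnt2, Actc1 and Ttn measured 10.65 to 13.34 on all 9. Across genes, which do not count as replicates, pairs of arrays correlated at 0.994 to 0.998 within an age and 0.960 to 0.993 between ages (Pearson). Ucp1, the thermogenic gene of brown fat, had signals of 4.30, 11.23 and 9.27 on 7-day replicates 1, 2 and 3, so class II values are also given without 7-day replicates 2 and 3. Scgb1a1, a lung gene, measured 5.83 on 24-hour replicate 1 and 6.83 on 7-day replicate 2, against 2.49 to 2.76 on the other arrays. Alb, a liver gene, measured 7.81 on 7-day replicate 2 and 5.27 and 6.04 on 24-hour replicates 1 and 3. On the other arrays Alb measured 3.73 to 4.16. The Y-linked gene Eif2s3y measured 2.87 to 3.30 on the 10-week arrays and 6.06 or more on the younger ones, while the X-inactivation gene Xist measured 8.26 to 9.56 on all 9, so that sex composition and age cannot be told apart at 10 weeks. Myl7, an atrial light chain gene, measured 4.70, 8.43 and 7.52 at 10 weeks, against 10.27 to 11.37 at the younger ages. Exactly equal values on 2 or more arrays occurred for 51.5% of the tested genes and for none of the 6 class II genes. Such ties make the spread of a flat gene too small.

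The chains of the peptide-binding molecules were dim in the newborn and bright in the adult. H2-Aa, the alpha chain of the I-A molecule, measured 4.66, 4.46 and 4.35 at 24 hours, 6.07, 6.11 and 6.10 at 7 days, and 10.31, 9.79 and 10.55 at 10 weeks. The 3 ages did not overlap. The 10-week mean was 4.12 ± 0.16 (SE) above the 7-day mean, a 17.4-fold difference, and the 7-day mean was 1.61 ± 0.16 above the 24-hour mean, 3.04-fold. From newborn to adult the difference was 53.0-fold, rank 1 of all genes by size of the rise.

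H2-Ab1, the beta chain that pairs with it, measured 4.60, 4.75 and 4.66 at 24 hours, 5.42, 5.49 and 5.02 at 7 days, and 9.13, 8.71 and 9.20 at 10 weeks. Its ages did not overlap either, and 7-day replicate 3 was the lowest of its age. It was 3.70 ± 0.14 higher at 10 weeks than at 7 days, or 13.0-fold, and 0.64 ± 0.14 higher at 7 days than at 24 hours, or 1.56-fold. The alpha chain thus had the larger first-week difference of this pair, at 28.0% of its whole log2 rise, against 14.8% for H2-Ab1. Both genes lay below the median gene at 24 hours, and H2-Ab1 also at 7 days, so these shares may be distorted by dim signals.

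H2-Eb1, the beta chain of the I-E molecule, measured 5.09, 5.28 and 5.20 at 24 hours, 5.48, 5.53 and 5.42 at 7 days, and 8.25, 7.88 and 8.59 at 10 weeks. The 24-hour and 7-day values lay close together without overlap, 0.28 ± 0.14 apart. The 10-week mean was 2.76 ± 0.14 above the 7-day mean, a 6.8-fold difference. Mice of the H2-b haplotype have a defective gene for the partner alpha chain, H2-Ea, which RefSeq lists as a transcribed pseudogene. H2-Ea measured 3.23 to 3.34 on all 9 arrays, with means of 3.31 ± 0.03 at 10 weeks and 3.26 ± 0.03 at 7 days (SD, n = 3 each; adjusted p = 0.437). The 10-week minus 7-day difference of H2-Ea was 0.05 ± 0.05, beside 2.76 ± 0.14 for H2-Eb1.

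The chaperone of the chains followed them. Cd74, which encodes the invariant chain, measured 4.58, 4.52 and 4.95 at 24 hours, 5.74, 5.96 and 5.63 at 7 days, and 9.69, 9.21 and 9.86 at 10 weeks. Its ages did not overlap. The 10-week mean was 3.81 ± 0.17 above the 7-day mean, or 14.0-fold, and the 7-day mean 1.09 ± 0.17 above the 24-hour mean, or 2.13-fold. The first week held 22.3% of its log2 rise.

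The peptide exchange factor and the transactivator differed less. H2-DMa, the alpha chain of DM, measured 3.72, 3.82 and 3.82 at 24 hours, 3.78, 3.77 and 3.85 at 7 days, and 4.48, 4.43 and 4.92 at 10 weeks. Its 24-hour and 7-day values overlapped, with a difference of 0.02 ± 0.11. All 10-week arrays lay above them, and the 10-week mean was 0.81 ± 0.11 above the 7-day mean, or 1.75-fold. The only probe set for the DM beta chain carries the symbols of 2 genes, H2-DMb1 and H2-DMb2, and is not analysed here.

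Ciita measured 4.28, 4.03 and 4.20 at 24 hours, 4.20, 4.04 and 4.09 at 7 days, and 4.62, 4.75 and 4.70 at 10 weeks. The younger ages overlapped, with a 7-day minus 24-hour difference of -0.06 ± 0.08. The 10-week values lay in a narrow band above both, 0.58 ± 0.08 over the 7-day mean, or 1.49-fold. Levels of different probe sets are not comparable, so the size of the Ciita difference against that of the genes it controls is a comparison of differences only.

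**Figure D1:**
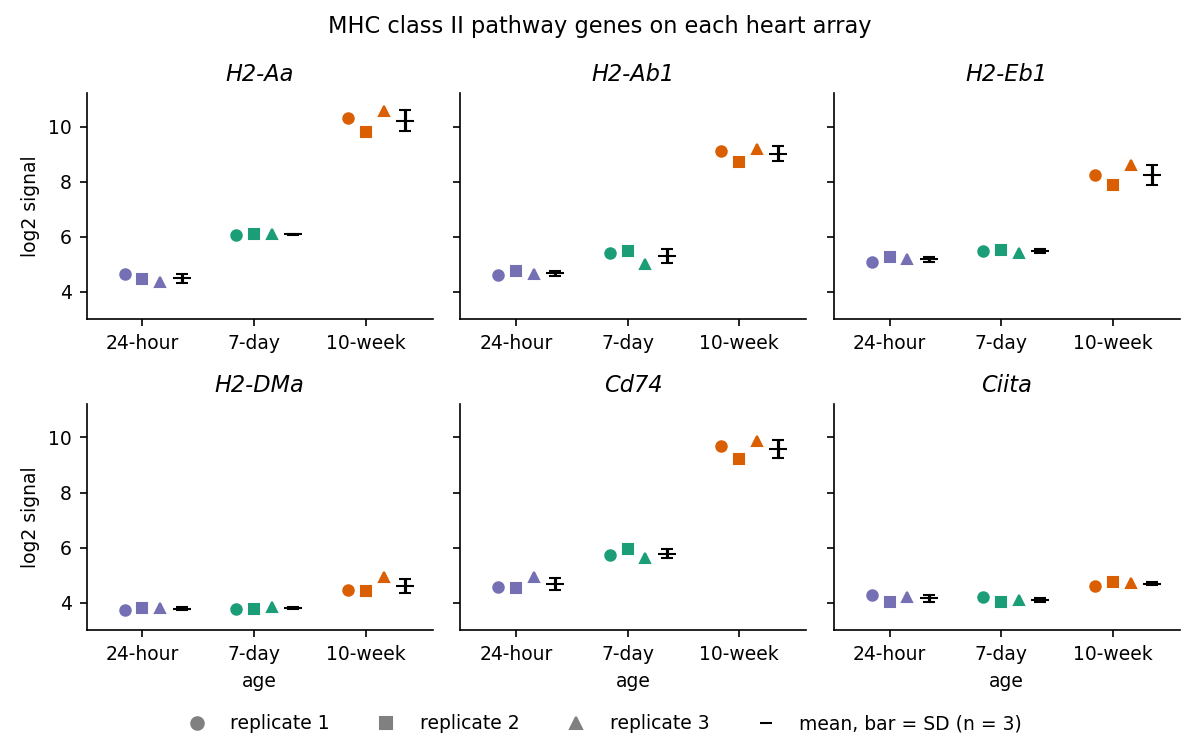
Log2 signal (vertical axis) of the 6 class II pathway genes on each of 9 heart arrays by age (horizontal axis). Symbols are replicates, and the black mark and bar are the mean and SD of 3 arrays. H2-Aa, H2-Ab1, H2-Eb1 and Cd74 lie between 7.88 and 10.55 at 10 weeks, while H2-DMa and Ciita stay below 5.

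Between 7 days and 10 weeks the 6 genes had a median log2 difference of 3.23, against 0.039 over all genes. At 10 weeks 6 of 6 lay above every 7-day array, as did 22.8% of all genes, and 4 were at least 2-fold higher, as were 2.08% of all genes. During the first week 4 of 6 lay above every 24-hour array (12.6% of all genes) and 2 were at least 2-fold higher (0.512%), with a median difference of 0.46 against -0.002 over all genes. From 24 hours to 10 weeks 6 of 6 were above without overlap (24.6% of all genes), 4 at least 2-fold (3.01%). These comparisons share arrays, and the genes were chosen with these values known, so nothing is read from the counts.

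The 10-week arrays differed among themselves in the same order for most of the genes. Replicate 2 was the lowest of the 3 adult arrays and replicate 3 the highest in H2-Aa, H2-Ab1, H2-Eb1, H2-DMa and Cd74. The gap between these arrays was 0.76 for H2-Aa, 0.71 for H2-Eb1, 0.65 for Cd74, 0.49 for H2-Ab1 and 0.48 for H2-DMa. Ciita went another way, with replicate 1 lowest and replicate 2 highest, 0.12 apart. Over all genes replicate 2 was lowest in 35.4% of cases and replicate 3 highest in 36.0%. Replicate 2 was also lowest in 10 of 13 MHC class I pathway genes, 9 of 15 genes of the interferon gamma axis, 6 of 10 general leukocyte genes, 6 of 14 dendritic cell markers and 5 of 17 macrophage markers. Replicate 3 was highest in 5, 6, 9, 6 and 11 genes of the same lists, in that order. Outside the immune lists, replicate 3 was highest in 8 of 11 fibroblast, 8 of 12 endothelial and 5 of 10 cardiomyocyte genes. It was highest in 0 of 7 brown fat genes and 2 of 6 lung and liver genes. Replicate 2 was lowest in 5, 4, 3, 1 and 2 genes of these lists, in that order.

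Without 7-day replicates 2 and 3, which carried the brown fat transcript, the 10-week minus 7-day difference was 4.14 for H2-Aa, 3.84 for Cd74, 3.59 for H2-Ab1, 2.76 for H2-Eb1, 0.83 for H2-DMa and 0.49 for Ciita. Ciita moved most in proportion, since 7-day replicate 1 was its highest of that age.

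The rest of the pathway was read from a list of 25 further genes, 23 of them with a usable probe set. Between 7 days and 10 weeks 8 of the 23 rose and 7 fell at an adjusted p under 0.05 in limma's test over all genes (17.0% of all genes rose and 18.9% fell). The median difference of the list was 0.06. Proteases, costimulatory ligands and nonclassical class II genes were among those that rose, and genes for the DNA-binding factors were among those that fell.

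Of the endosomal enzymes, cathepsin S (Ctss), which cuts the invariant chain in antigen-presenting cells, measured 8.26, 8.03 and 8.63 at 10 weeks, against 7.09, 7.03 and 7.14 at 7 days. Every 10-week array lay above the 7-day arrays, and the difference was 1.22 ± 0.13 (SE, adjusted p = 4.13e-05). Cathepsin D (Ctsd) rose by 0.66 (adjusted p = 8.07e-06). Cathepsins L and B (Ctsl, Ctsb) did not pass, at 0.14 and 0.06. Lgmn, an asparagine-specific endopeptidase, fell by 0.23 (adjusted p = 0.0077), and Ifi30, the thiol reductase of endosomes, by 0.32 (adjusted p = 0.0408). Ifi30 was the 1 gene of the list that rose in the first week, by 0.44 (adjusted p = 0.0265). Sppl2a, the protease that clears the last membrane stub of the invariant chain, measured 8.52 ± 0.21 at 10 weeks and 8.41 ± 0.07 at 7 days (SD, n = 3 each; adjusted p = 0.388).

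The costimulatory ligands Cd80 and Cd86, which T cells read together with the class II molecule, both rose. Cd80 measured 4.85, 5.03 and 5.12 at 10 weeks, against 4.19, 4.24 and 4.20 at 7 days, a difference of 0.79 ± 0.10 (SE, adjusted p = 9.66e-05). Cd86 measured 5.03, 4.74 and 4.79, against 3.89, 4.11 and 4.19, a difference of 0.79 ± 0.11 (adjusted p = 2.40e-04). In both genes the 10-week arrays lay above all younger ones. Cd40, a receptor through which T cells activate antigen-presenting cells, did not pass (-0.15, adjusted p = 0.109). Marchf1, a ubiquitin ligase that removes class II molecules and CD86 from the surface, rose by 0.26 (adjusted p = 0.0114), while its relative Marchf8 did not pass (adjusted p = 0.963).

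The nonclassical genes H2-Oa and H2-Ob encode DO, which holds DM in check. H2-Oa averaged 4.35 ± 0.10 at 10 weeks and 3.99 ± 0.02 at 7 days (SD, n = 3 each), a rise of 0.36 (adjusted p = 0.00107), and H2-Ob rose by 0.25 (adjusted p = 0.0209). H2-Eb2, whose promoter carries the X1 core and Y box at the spacing of H2-Eb1, measured 3.73, 3.78 and 4.01 at 10 weeks, against 3.58, 3.49 and 3.58 at 7 days. That is a rise of 0.29 (adjusted p = 0.0102), beside 2.76 for H2-Eb1.

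None of the 7 genes for the factors that CIITA docks on was called higher in any of the comparisons by limma. At 10 weeks 17.0% of all genes were higher than at 7 days, so that 0 of 7 is near the background. Falls between these ages were called in Nfya, Nfyb, Nfyc, Creb1 and Rfxank, while 18.9% of all genes fell. Nfya, a subunit of NF-Y, which binds the Y box, measured 7.48, 7.52 and 7.50 at 10 weeks, against 8.25, 8.08 and 8.17 at 7 days, a fall of 0.67 (adjusted p = 2.58e-05). Nfyc fell by 0.66 (adjusted p = 1.60e-04) and Nfyb by 0.26 (adjusted p = 0.0202). Creb1, the CREB gene, fell by 0.48 (adjusted p = 1.55e-04). Of the RFX subunits, which bind the X1 box, Rfxank fell by 0.39 (adjusted p = 3.78e-04), while Rfx5 and Rfxap did not pass, at 0.06 and 0.05. Rfx5 had the same value on 6 of the 9 arrays, so its spread may be too small.

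**Figure D2:**
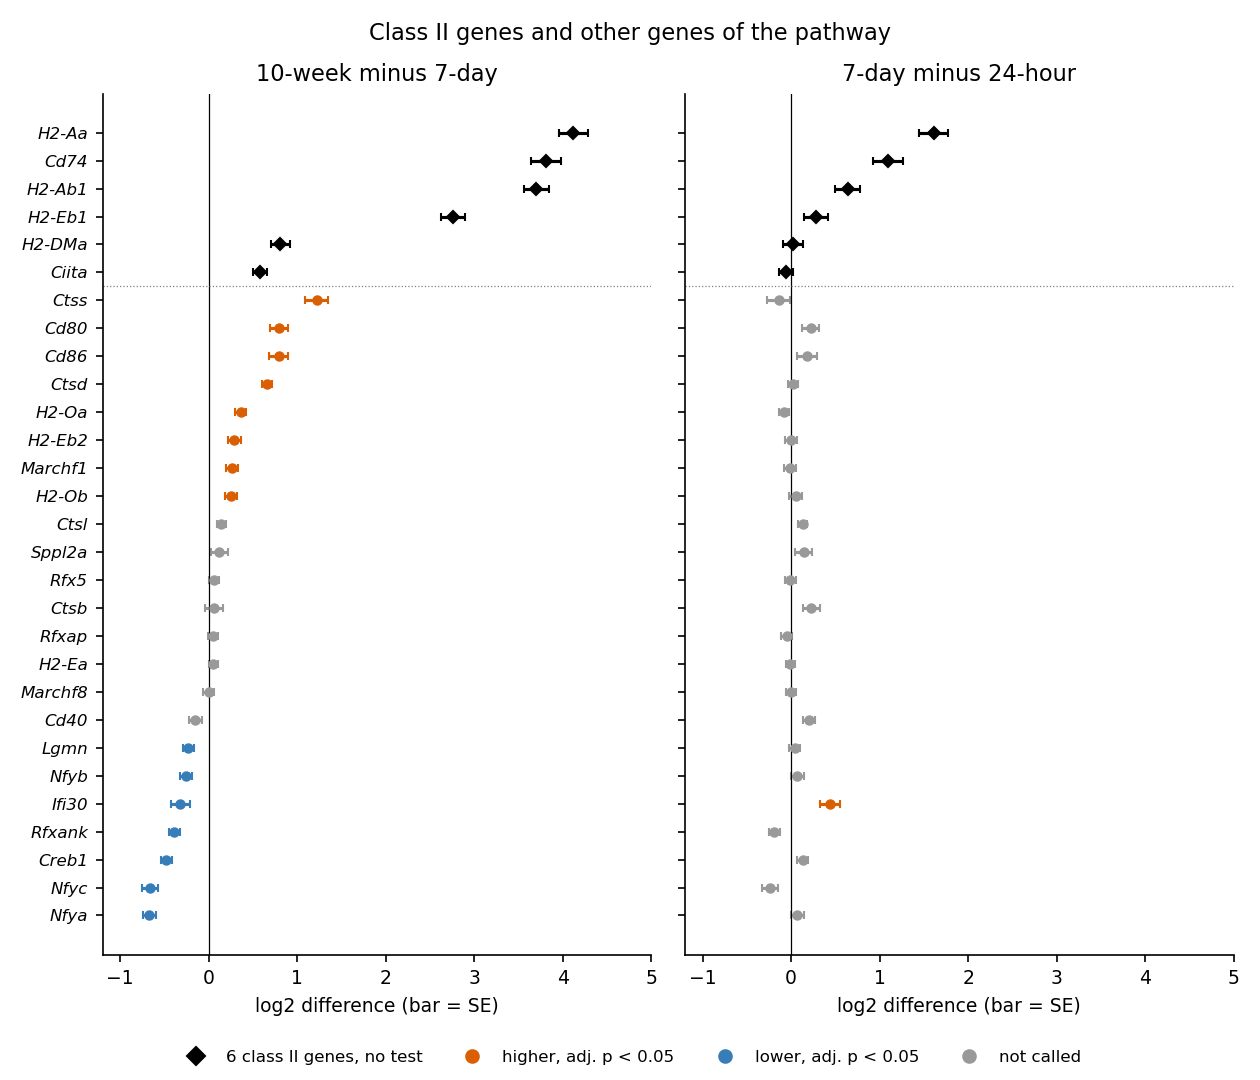
Log2 differences with their SE (horizontal axis) between 10 weeks and 7 days (left) and between 7 days and 24 hours (right) for the 6 class II genes (black diamonds, no test) and 23 other genes of the pathway (circles, coloured by limma's call). At 10 weeks 8 of the 23 were higher and 7 lower than at 7 days, with Ctss highest at 1.22 and Nfya lowest at -0.67.

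Of the 23 genes 1 rose in the first week, Ifi30 (5.27% of all genes rose), and none fell in limma's test (4.81% of all genes fell), with 5 higher and 2 lower at an unadjusted p under 0.05. With all features tested, or with the 6 arrays of these ages alone, none rose. From 24 hours to 10 weeks 10 rose and 5 fell (19.5% and 20.6% of all genes). Cd80 was 1.01 higher, Cd86 0.97 higher and Ctss 1.08 higher, while Nfyc fell by 0.90.

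Some of these calls lay near the threshold and were lost when 1 array was left out. The first-week rise of Ifi30, 0.44 with all arrays, was 0.37 to 0.41 and did not pass without 24-hour replicate 1 or 2 or 7-day replicate 2 or 3, and its later difference was -0.32 to -0.25 and did not pass without 24-hour replicate 1 or 2, 7-day replicate 2 or 3, or 10-week replicate 1 or 2. The call of Nfyb was lost, at -0.26 to -0.21, without 7-day replicate 2 or 3 or 10-week replicate 2 or 3. That of H2-Ob between 7 days and 10 weeks was lost without 7-day replicate 1 (0.18) or 10-week replicate 3 (0.24). With quantile normalization H2-Ob (0.20), Nfyb (-0.18) and Ifi30 (-0.22) did not pass in that comparison. Between 24 hours and 10 weeks the rise of Ctsb was 0.29 with all arrays. It did not pass, at 0.17 to 0.32, without 24-hour replicate 1, 2 or 3, 7-day replicate 2 or 3, or 10-week replicate 2 or 3. The fall of Lgmn there did not pass without 24-hour replicate 1 (-0.18) or 10-week replicate 2 (-0.16), or with quantile normalization (-0.14). Without both 7-day replicates 2 and 3, Ifi30 (-0.09), Nfyb (-0.21), Lgmn (-0.17) and H2-Eb2 (0.26) did not pass between 7 days and 10 weeks.

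Interferon gamma induces Ciita, and the axis was read from 18 genes, 15 of them usable. At 10 weeks 9 of 15 were higher than at 7 days and none lower in limma's test (11 and 0 at an unadjusted p under 0.05), with a list median of 0.31. Over all genes 17.0% were higher and 18.9% lower in that comparison. Cxcl9, a chemokine gene induced by interferon gamma, measured 8.20, 7.68 and 8.38 at 10 weeks, against 5.63, 5.34 and 5.64 at 7 days, a rise of 2.55 (adjusted p = 6.62e-07). The GTPase genes Iigp1, Gbp3 and Irgm1 rose by 2.43, 1.34 and 1.03. Irf1, an interferon-induced transcription factor, was 1.44 higher at 10 weeks than at 24 hours (adjusted p = 3.49e-07). The interferon gene Ifng itself measured 4.42, 4.05 and 4.43 at 10 weeks and 4.16 on each 7-day array, and these ages overlapped.

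Of the 15 genes 3 rose in the first week, Cxcl9 by 0.80 (adjusted p = 0.00898), Irf1 by 0.57 (adjusted p = 0.00192) and Ifngr2, a receptor chain, by 0.28 (adjusted p = 0.0195). Over all genes 5.27% rose and 4.81% fell in that step. None of the 15 fell in limma's test, with 1 lower at an unadjusted p under 0.05 and 1 called lower without 7-day replicate 2. Without 7-day replicates 2 and 3 none rose. MHC class I genes, which display peptides from inside the cell, are the nearest set to compare. Of 16 class I pathway genes 13 were usable. At 10 weeks 9 of the 13 were higher than at 7 days, as were 17.0% of all genes. The list median was 0.46, with Psmb8, an immunoproteasome subunit, largest at 1.41 (adjusted p = 2.85e-06). B2m, the light chain of class I molecules, rose by 1.07 (adjusted p = 2.23e-05). Psmb8 was the 1 of the 13 that rose in the first week, by 0.45 (adjusted p = 0.0235), while 6 were higher at an unadjusted p under 0.05. That count of 1 was 5 with only the 6 arrays of these ages, 0 without 24-hour replicate 1 or 2 or 7-day replicate 1 or 3, and 2, 4 and 2 without 10-week replicate 1, 2 or 3. The heavy chain genes H2-K1, H2-D1 and H2-T23 have no probe set of a single symbol and are not analysed here.

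A heart sample holds many cell types, and in whole-tissue RNA fewer cells of a type cannot be told apart from less RNA per cell. Macrophage markers were also higher in the adult. At 10 weeks 14 of 17 were higher than at 7 days and 1 was lower (17.0% and 18.9% of all genes). The list's log2 signals summed to 122.4 to 125.5 at 10 weeks and 108.0 to 110.4 at 7 days. Folr2, a folate receptor of resident macrophages, rose by 2.12 (adjusted p = 5.68e-07), Lyz2, a lysozyme, by 1.82 (adjusted p = 3.49e-08) and Cd163, a scavenger receptor, by 1.51 (adjusted p = 3.73e-05). The median of the list was 0.68. Over the first week 9 of 17 were higher and 1 lower (5.27% and 4.81% of all genes). The sum stood at 108.0 to 110.4 at 7 days and 102.8 to 105.0 at 24 hours. Among the higher markers Lyz2 rose by 1.10 and Adgre1, the F4/80 gene, by 1.09. Without 7-day replicates 2 and 3 these counts were 12 and 0 for the later step and 4 and 0 for the first week.

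The single macrophage marker that fell in the first week was Lyve1, of a resident subset, by 0.82 (adjusted p = 0.0202). It did not pass without 24-hour replicate 1 or 2 or 7-day replicate 1 or 3, and 2 markers fell without 10-week replicate 2 or 3. The 1 that was lower at 10 weeks than at 7 days was Cx3cr1, a chemokine receptor gene, which fell by 0.29 (adjusted p = 0.0138) and did not pass without 7-day replicate 3. General leukocyte genes rose in 8 of 10 cases between 7 days and 10 weeks, with Cd52 at 1.18, Cd53 at 1.09 and Cd48 at 1.04. In the first week 4 of 10 rose. Over all genes 17.0% and 5.27% rose in these steps. The first-week count was 2 when any 1 of the 24-hour replicates 1 and 2 or the 7-day replicates was left out, and 0 without both 7-day replicates 2 and 3. None of the 10 fell in either step in limma's test, nor at an unadjusted p under 0.05.

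Dendritic cell markers rose in 6 of 14 cases between 7 days and 10 weeks and fell in 1 (17.0% of all genes rose and 18.9% fell), and their log2 signals summed to 64.7 to 65.3 at 10 weeks and 62.2 to 62.9 at 7 days. Clec10a, a lectin shared by dendritic cells and macrophages, rose by 1.22 (adjusted p = 2.73e-07), Cd83, an activation marker, by 0.40 (adjusted p = 0.011) and Siglech, of plasmacytoid cells, by 0.37 (adjusted p = 0.0121). Of the defining genes, Flt3 measured 4.70 to 4.79 at 10 weeks and 4.35 to 4.50 at 7 days, a rise of 0.32 (adjusted p = 0.003). Zbtb46 measured 4.97 to 5.08 and 4.80 to 5.04 at these ages and did not pass (0.08, adjusted p = 0.416). Fscn1, which codes for the actin bundler of mature dendritic cells and is made by other cells too, fell by 1.42 (adjusted p = 1.45e-05). In limma's test no dendritic marker passed in the first week (3 higher at an unadjusted p under 0.05), although 1 rose without 24-hour replicate 3 or 10-week replicate 2 and 2 without 10-week replicate 3. Without 7-day replicates 2 and 3, 2 rose and 1 fell between 7 days and 10 weeks.

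B cell markers stayed below the median gene on every array. None of 10 passed in limma's test in any comparison, with 1 higher at an unadjusted p under 0.05 in each of the steps and 2 higher between 24 hours and 10 weeks. Leaving out 10-week replicate 3 made 1 pass in the later step, and leaving out 10-week replicate 2 or 3 made 1 pass between 24 hours and 10 weeks. Their log2 signals summed to 38.9 to 39.4 at 10 weeks and 38.7 to 39.1 at 7 days, and Cd79a and Ms4a1 measured 3.03 to 3.35 at 10 weeks. T cell markers also lay below the median gene on every array. Of 10, the costimulatory receptor gene Cd28 was the 1 that rose between 7 days and 10 weeks, by 0.62 (adjusted p = 2.79e-04). Over all genes 17.0% rose in that step. The T cell count of 1 was 2 without 7-day replicate 1 or 3 or 10-week replicate 3 and 3 without 10-week replicate 1. Between 24 hours and 10 weeks 6 of the 10 rose and none fell in limma's test (6 and 0 at an unadjusted p under 0.05), with a median of 0.33. Over all genes 19.5% rose and 20.6% fell in that comparison. Cd8b1, a chain of the CD8 co-receptor, was the 1 that rose in the first week (5.27% of all genes rose), by 0.32 (adjusted p = 0.0343). It was lost without 24-hour replicate 2 or 3 or any 1 of the 7-day replicates, and 2 rose without 10-week replicate 3. The part of any of these cell types in the class II differences was not tested.

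**Figure D3:**
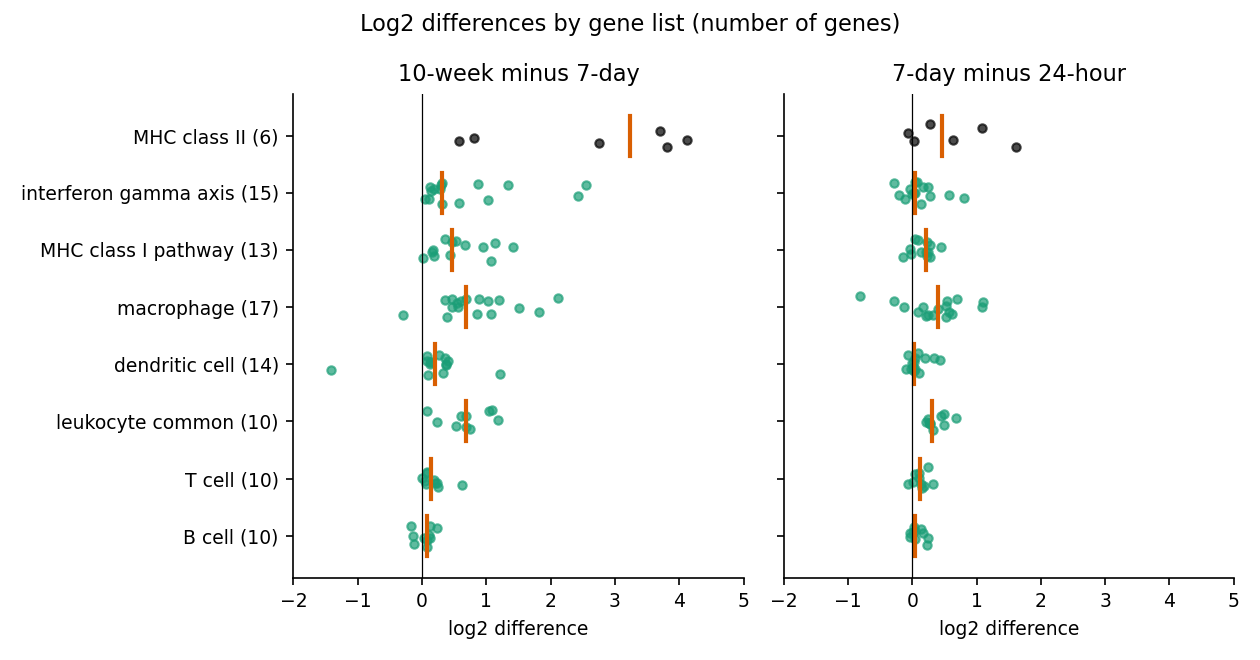
Log2 differences of single genes (points, horizontal axis) and list medians (orange bars) between 10 weeks and 7 days (left) and 7 days and 24 hours (right), by gene list (vertical axis, number of genes in brackets). The class II median of 3.23 at left stands beside 0.68 for macrophage markers, 0.46 for the class I pathway and 0.20 for dendritic cell markers.

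Likeness to the class II genes was measured against their mean profile, each gene centred on its own mean over the 9 arrays, as the root-mean-square distance in log2 units. The median gene lay 1.39 away. Among the 6 themselves H2-Eb1 was nearest to that mean, at 0.15, then H2-Ab1 at 0.53 and Cd74 at 0.71, while H2-Aa and H2-DMa lay 1.03 and Ciita 1.16 away, because the mean runs between 4 large and 2 small rises. The nearest other genes were Tmod4, a tropomodulin of skeletal muscle, at 0.14, Cxcl9 at 0.15, Abcb4, a phospholipid transporter, at 0.20, and Mgl2, a lectin of dendritic cells and macrophages, at 0.21.

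Gm5532 and Lgi1 followed at 0.22 each, then Cd274, the gene of the inhibitory ligand PD-L1, and Lrrc2 at 0.23, and B3galt2 and Wfdc17 at 0.25. Cd274 measured 8.34, 7.77 and 8.64 at 10 weeks, against 5.85, 6.04 and 6.02 at 7 days. In 4 of these 10 genes, Cd274, Cxcl9, Lgi1 and Lrrc2, the 10-week arrays stood in the order seen in the class II chains, with replicate 2 lowest and replicate 3 highest. The genes were picked by likeness over all arrays, the 10-week ones included, so nothing is read from that order. In Lgi1 and Lrrc2, however, the 10-week values lay close together, at 5.75 to 5.84 and 11.19 to 11.33. In Tmod4 replicate 2 was lowest too, but its 10-week values lay between 7.81 and 7.97.

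**Figure D4:**
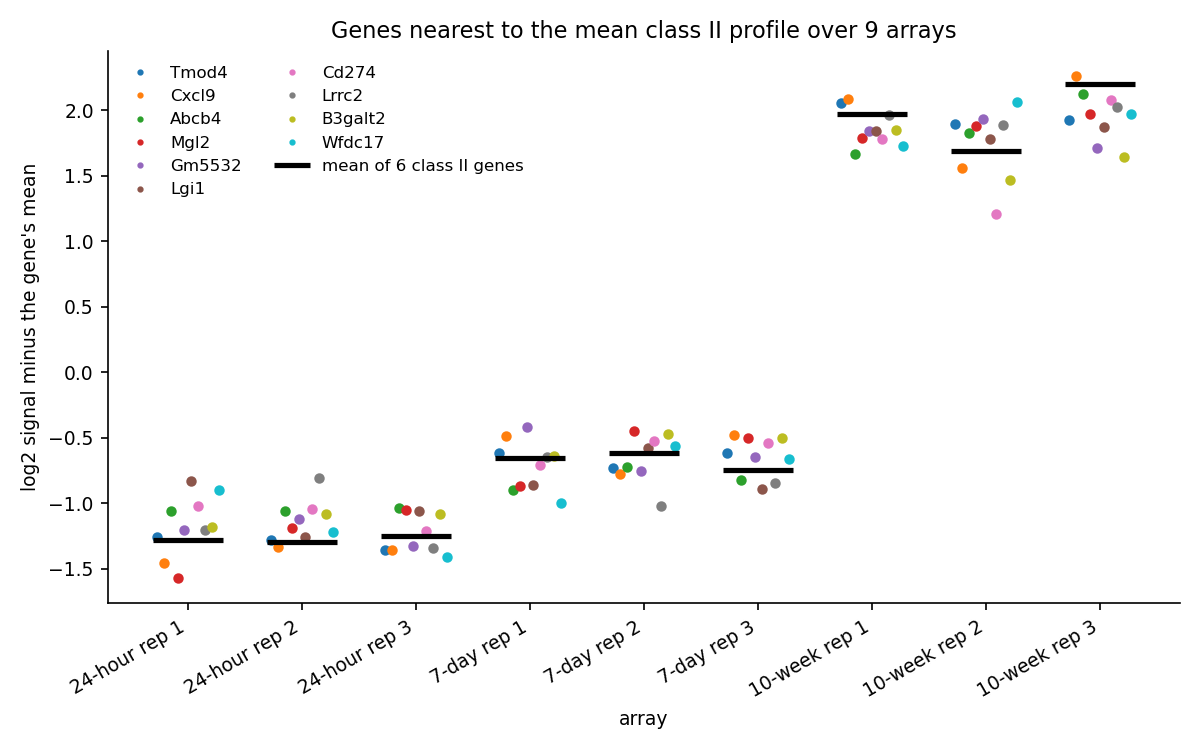
Log2 signal minus the gene's own mean (vertical axis) on each of 9 arrays (horizontal axis) for the 10 genes nearest to the mean profile of the 6 class II genes (black bars). The mean profile stands at -1.30 to -1.25 at 24 hours, -0.75 to -0.62 at 7 days and 1.69 to 2.20 at 10 weeks.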

How the data were processed

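The deposited table holds a log2 signal per feature and array, and the submitters' processing notes name MAS5 5.0. Beyond that name, the sources used here give nothing on probe summary, normalization between arrays or genome build. Whether MAS5 gave these values was not tested. Values ran from 1.853 to 13.583, above the natural log of a 16-bit maximum (11.09), and array medians differed by at most 0.0485, so values were used as deposited.

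Of 35556 features 21789 carry 1 symbol, updated by Entrez id for 21698, which gave 19938 genes by the highest-mean probe set. In limma 3.58.1 (R 4.3.3) a model with a mean for each age was fitted over the 9 arrays, with eBayes and an intensity trend (6 residual degrees of freedom). P-values were adjusted by Benjamini and Hochberg over all genes and called under 0.05. The fit was tested on simulated data. Array number limits the precision.

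The 6 genes and all lists were chosen with earlier results of these data known. Named genes are all members and other pathway genes, up to 4 called genes per other list and comparison, the 10 nearest profiles and genes that check the samples; Zbtb46, Flt3, Ms4a1, Cd79a, Ifng and Cx3cr1 were named after their values were seen. Lists cover the interferon gamma axis, class I, dendritic, macrophage, B, T, general leukocyte, endothelial, fibroblast, cardiomyocyte, brown fat, and lung and liver genes. Alternatives changed normalization, variance prior, filter, probe sets, arrays and replicate block. Python 3.11.15 with pandas 2.3.3 made tables.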

Additional observations from a re-analysis of the deposited data

How the results depend on the processing

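The median log2 difference of the 6 class II genes kept its sign and size under every alternative that gave a value. It was 3.10 to 3.40 between 10 weeks and 7 days, 0.41 to 0.55 between 7 days and 24 hours, and 3.56 to 3.86 between 10 weeks and 24 hours with 1 array left out. The filter on genes above the median signal removed H2-DMa and Ciita, so it gives no median. Among the 23 other pathway genes the single first-week rise became 0 with only the arrays compared, with all features and without both 7-day arrays with brown fat transcripts, and first-week falls, 0 at first, became 1 with only the arrays compared and 1 above the median signal. With 1 array left out both counts lay between 0 and 1. Above the median signal, where fewer genes are tested, 3 rather than 8 were higher at 10 weeks than at 7 days, and 5 rather than 10 at 10 weeks than at 24 hours. Without both 7-day arrays, which leaves 1 array at that age assumed to vary like the other ages, 4 rather than 7 were lower at 10 weeks than at 7 days. Over all genes that setting gave 265 higher and 251 lower in the first week, against 1050 and 959, and 1865 higher and 2291 lower between 10 weeks and 7 days, against 3388 and 3777. With 1 array left out the first-week counts were 593 to 1160 higher and 547 to 1156 lower. The causes were not tested beyond the smaller numbers of genes or arrays. Precision is limited by 3 arrays per age, and H2-DMa and Ciita lay below the median signal on every array.

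Replicate numbers are shared between ages. In their deviations from the age means, same-numbered arrays correlated at -0.174 to 0.133 and differently numbered ones at -0.216 to 0.25. These values show no pairing by number, and whether same-numbered arrays shared a batch was not tested. With the replicate number as a block, 8 of the 23 other pathway genes were higher and 7 lower at 10 weeks than at 7 days, and the class II median was 3.23.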

Other observations

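Between 7 days and 10 weeks most called genes of the heart's fibroblast and endothelial lists were lower. Of 11 fibroblast markers 1 was higher and 8 were lower at 10 weeks than at 7 days in limma's test. Over all genes 17.0% were higher and 18.9% lower. The collagen genes Col1a1 and Col3a1 fell by 3.02 and 2.90 (adjusted p = 2.99e-07 and 1.67e-07), while Gsn, an actin-severing protein gene, rose by 1.64 (adjusted p = 3.28e-07). In the first week 4 of the 11 had risen (10 at an unadjusted p under 0.05), while 5.27% of all genes rose. The list median was 0.51 beside 0.46 for the 6 class II genes. Lum, a matrix proteoglycan gene, led at 1.45 (adjusted p = 4.65e-05). Of 12 endothelial markers 1 was higher, the VEGF receptor gene Flt1 at 0.86, and 6 were lower at 10 weeks, led by the tight junction gene Cldn5, which fell by 0.95 (adjusted p = 7.84e-06). In the first week 4 endothelial markers rose and 1, Eng, fell by 0.30 (5.27% of all genes rose and 4.81% fell). The call of Eng was lost without 24-hour replicate 1 or 2 or 7-day replicate 1.

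Between 7 days and 10 weeks 1 of 10 cardiomyocyte markers rose and 1 fell, while 17.0% of all genes rose and 18.9% fell. Mybpc3, a sarcomere gene, rose by 0.35, and Nppa, the atrial natriuretic peptide gene, fell by 0.44. Without 10-week replicate 3 the marker counts of rises and falls were both 2, and without 10-week replicate 2 the count of rises was 2. In the first week 1 of the 10, Ryr2, the calcium release channel gene, fell by 0.29, while 4.81% of all genes fell. That call did not pass without any 1 of the 24-hour replicates or 7-day replicate 1, and 2 markers fell without 7-day replicate 2. Among 7 brown fat genes Ucp1 fell by 4.18 between 7 days and 10 weeks (adjusted p = 0.0283), a call that was lost without 7-day replicate 2 or 3 or any 1 of the 10-week replicates, and 4 fell without 7-day replicate 1. Cox7a1, a cytochrome oxidase subunit gene that heart muscle also uses, rose by 1.03. Of 6 lung and liver genes Ttr fell by 0.36 (adjusted p = 0.0312), also lost without 7-day replicate 1 or 2 or 10-week replicate 1, 2 or 3.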
